A study of Rattus norvegicus with 12 samples.

Results

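Calcium that enters vascular smooth muscle from outside the cell passes through a small number of channels, and 9 genes for them were followed here by symbol in lung RNA sequencing of monocrotaline (MCT) rats. They are Trpc1, Trpc4, Trpc6, Stim1, Stim2, Orai1, Orai2, Orai3 and Cacna1c. These are 9 of the 19687 genes listed in the deposited tables, they were chosen by name, by a rule that uses no measured value although earlier results of these data were known, and each has a single gene model. All 9 were listed for all 12 libraries and passed the filter on low counts in every comparison.

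MCT is a plant alkaloid that injures pulmonary vessels and gives rats pulmonary hypertension, and all 12 animals had received it, so that no healthy lung was available for comparison. The study used male Sprague-Dawley rats given a subcutaneous MCT injection at 60 mg/kg, and the age on the labels is 9 weeks. An implanted minipump gave groups of 3 rats losartan at 10 mg/kg/day, AngII at 1 mg/kg/day or TRV023 at 10 μg/kg/min, and the vehicle group PBS. AngII is the natural peptide agonist of the angiotensin type 1 receptor (AT1R), TRV023 is a peptide that favors β-arrestin over G protein signaling at that receptor, and losartan is its antagonist. The animals for histology and hemodynamics were infused for 2 weeks from 1 week after MCT, and the time of the sequenced lungs is not stated separately. Each library is total RNA from a piece of lung of 1 rat, named here by its group and animal number, so that the p-values describe differences between rats. In whole lung a lower value can mean fewer cells of a type or less RNA per cell, and these cannot be told apart.

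In smooth muscle, Cacna1c encodes the pore of the L-type channel that opens on depolarization. STIM proteins sense the calcium content of the endoplasmic reticulum, and when the store is emptied they open ORAI channels in the plasma membrane, a process called store-operated entry. TRPC channels are cation channels that open downstream of Gq-coupled receptors such as AT1R, with TRPC6 opened by diacylglycerol, and TRPC1 and TRPC4 have also been linked to store-operated entry. STIM and ORAI proteins are at work in immune cells and endothelium too, so their transcripts in lung do not come from vascular muscle alone.

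The libraries held 16106337 to 20096877 counted reads. Lung smooth muscle was represented by 10 of 11 listed markers, Acta2 not being in the tables used here, and their summed FPKM was 722 to 1414 in 11 libraries and 2870 in Veh_963. In Veh_963 the cardiac muscle markers summed to 299, against 19.5 to 54.1 elsewhere. This sum mostly follows Actc1, with a mean of 42.8 FPKM over the libraries. Tnnt2 averaged 7.26, Tnni3 5.99 and Myl4 1.87, while Mybpc3 at 0.119 and Myh6 at 0.0137 were near 0. The sum therefore does not show that heart muscle was present. Neutrophil markers reached 713 in Los_964 and 748 in Trv_917, against 93.2 to 446 in the other 10 libraries. Values that turned or moved most without Veh_963 or Los_964 are therefore also given without them. The part of these cell types in the values of the calcium channels was not tested.

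Orai1, Orai3, Stim1 and Stim2 were the most abundant of the 9 transcripts, and the order of the genes was almost the same in every lung. Levels are given as FPKM, read counts scaled for gene model length and library depth, so that genes of different length can be set side by side. Over the 12 libraries the mean was 73.6 ± 14.5 (SD, n = 12) for Orai1, 22.6 ± 2.51 for Orai3, 17.8 ± 2.34 for Stim1 and 13.1 ± 1.39 for Stim2. Trpc6 followed at 8.15 ± 1.56, Orai2 at 4.23 ± 1.04, Cacna1c at 3.11 ± 0.840 and Trpc1 at 2.45 ± 0.517. Trpc4 was the lowest at 0.531 ± 0.309, with 10 to 78 reads per library. Among the genes of the 12-library fit, these means lay between the 6.71 percentile for Trpc4 and the 91.4 percentile for Orai1.

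**Figure D1:**
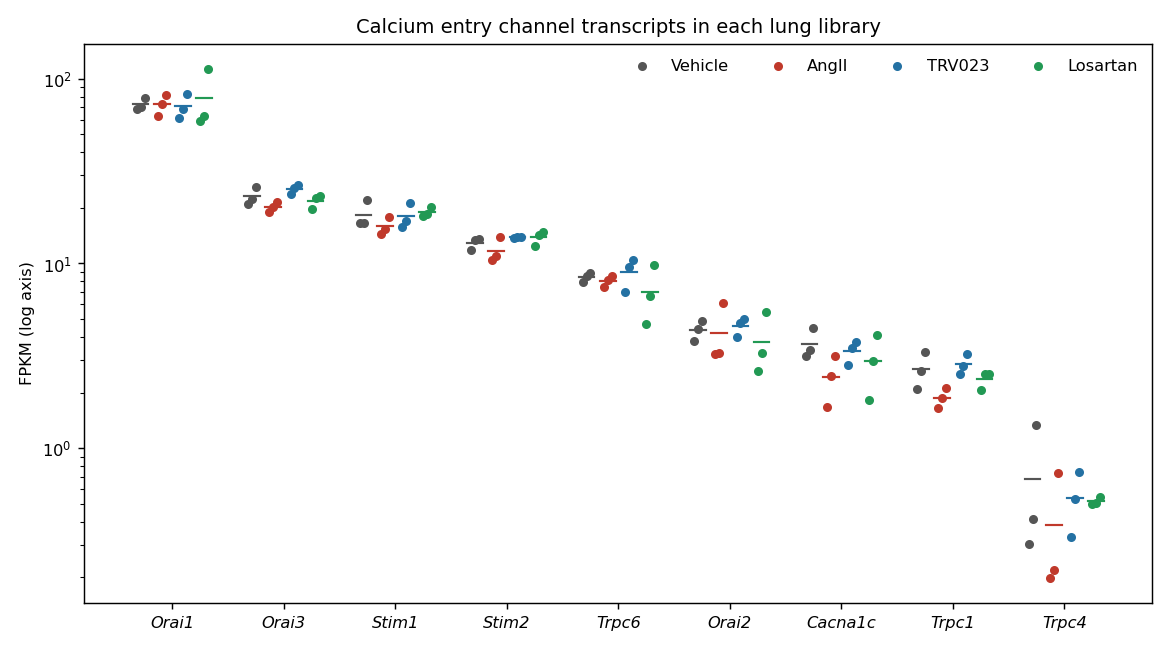
FPKM of the 9 genes (log axis) in the 12 libraries, colored by group, with a point for each rat and a line at each group mean. The genes run from Orai1 at 59.0 to 112 FPKM down to Trpc4 at 0.200 to 1.34 FPKM, and the 4 groups lie on top of each other for most of them.

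Between neighbors, Orai1 was above Orai3 in 12 of 12 libraries, Stim1 above Stim2, Stim2 above Trpc6, Trpc6 above Orai2, and Trpc1 above Trpc4 likewise in 12 of 12. Orai3 was above Stim1 in 10 libraries, Orai2 above Cacna1c in 10 and Cacna1c above Trpc1 in 11, so that these 3 pairs of neighbors were not separated beyond their spread. The level of Orai1 needs care. Its deposited gene model covers 763 bases at chr12:40878320-40879082 on the minus strand, with no intron, whereas RefSeq places Orai1 over 13892 bases in assembly GRCr8. Reads from outside the short model would not be counted, and the FPKM divides by its length alone, so that the 3.17-fold median ratio of Orai1 to Orai3 holds for these gene models. For Cacna1c, Trpc4 and Trpc6 the FPKM values correspond to lengths of 6505, 2906 and 2691 bases, against 6657, 3127 and 2793 bases in the length column, and the difference is the same in all libraries.

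The other models span 49964 bases for Trpc1 (chr8:102955430-103005393, minus strand), 124946 for Trpc4 (chr2:163157119-163282064, plus strand) and 105061 for Trpc6 (chr8:6799564-6904624, plus strand). Stim1 spans 159519 bases (chr1:173562502-173722020, plus strand) and Stim2 126865 bases (chr14:59324133-59450997, minus strand). Orai2 spans 17724 bases (chr12:25544833-25562556, plus strand), Orai3 4859 bases (chr1:206239787-206244645, plus strand) and Cacna1c 618257 bases (chr4:216566486-217184742, minus strand). All 9 are listed as protein coding, and the build behind these coordinates is not given in the sources used here. Orai1 and Orai2 lie on the same chromosome, as do Stim1 and Orai3, and Trpc1 and Trpc6.

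Sequence before the start of transcription was at hand for 7 of the 9 genes, from RefSeq in assembly GRCr8, and not for Trpc1 and Orai2. The 250 bases before the start are shown for Orai1, the most abundant of the channel genes, and for Cacna1c, the L-type pore, since they are far apart in CpG content. Capitals mark CG dinucleotides, the bases read 5′ to 3′ along the gene's own strand, and the Cacna1c window ends before a transcript start 184 bases inside the annotated gene.
Orai1, chr12:39209031-39209280, minus strand: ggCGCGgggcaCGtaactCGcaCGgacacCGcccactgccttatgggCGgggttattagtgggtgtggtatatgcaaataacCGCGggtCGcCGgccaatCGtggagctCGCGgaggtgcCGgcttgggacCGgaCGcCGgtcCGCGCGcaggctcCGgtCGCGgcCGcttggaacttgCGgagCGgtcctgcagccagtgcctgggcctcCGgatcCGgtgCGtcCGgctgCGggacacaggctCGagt
Cacna1c, chr4:154051749-154051998, minus strand: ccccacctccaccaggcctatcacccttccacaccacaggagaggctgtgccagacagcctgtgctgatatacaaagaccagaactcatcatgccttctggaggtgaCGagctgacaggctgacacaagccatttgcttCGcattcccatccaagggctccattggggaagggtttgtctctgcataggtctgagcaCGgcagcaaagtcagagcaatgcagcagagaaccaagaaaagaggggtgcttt
The Orai1 window holds 33 CG dinucleotides, a number that 3.6% of the 33469 RefSeq windows of the same length reach, and the Cacna1c window holds 3, a number that 71.4% reach. Stim2 with 34, Stim1 with 24 and Trpc6 with 17 were on the side of Orai1, and Orai3 with 4 on the side of Cacna1c. The Trpc4 window, with 2, belongs to a transcript start 43455 bases inside the annotated gene, so that its count is not that of the outermost start. For Stim1 and Stim2 the transcript start is 764 and 201 bases inside. The median of all windows is 5. Transcript level did not follow CpG content in every gene, as Orai3 with 4 CG dinucleotides was more abundant than Stim1, Stim2 and Trpc6. Cacna1c and Trpc4, with 3 and 2, were the least abundant of the 7 genes. The relation was not tested. Methylation and binding of factors were not measured here.

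Infusion of AngII, TRV023 or losartan left none of the 9 transcripts different from vehicle at an adjusted p under 0.05. In edgeR's quasi-likelihood test with Benjamini-Hochberg adjustment over all genes tested, 0 of 9 were called with each of the drugs, and 0 of 9 had an unadjusted p under 0.05 in any of these comparisons. DESeq2 also called 0 of 9 in each. Few genes of any kind were called by edgeR, with 0.0133% of 15059 tested under AngII, 0.00658% of 15193 under TRV023 and 0% of 15156 under losartan, so that 0 of 9 is near the background. At an unadjusted p under 0.05 the background was 11.9%, 5.56% and 1.65%, and DESeq2 called 1.34%, 0.699% and 0.033% of genes. The median log2 fold change of the 9 genes was -0.056 with AngII, 0.069 with TRV023 and -0.13 with losartan, beside -0.025, -0.0016 and 0.0063 for all genes tested. Among the 9, 6 had a log2 fold change below 0 with AngII, 4 with TRV023 and 6 with losartan. Below 0 were 52.6%, 50.3% and 48.7% of all genes. Scaling to library totals in place of TMM moved the median of all genes with AngII to -0.16 and turned the values of Trpc6 and Orai2 below 0. A p that misses the threshold does not show that the levels were alike, and the intervals below give the changes that these 3 rats per group still allow.

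**Figure D2:**
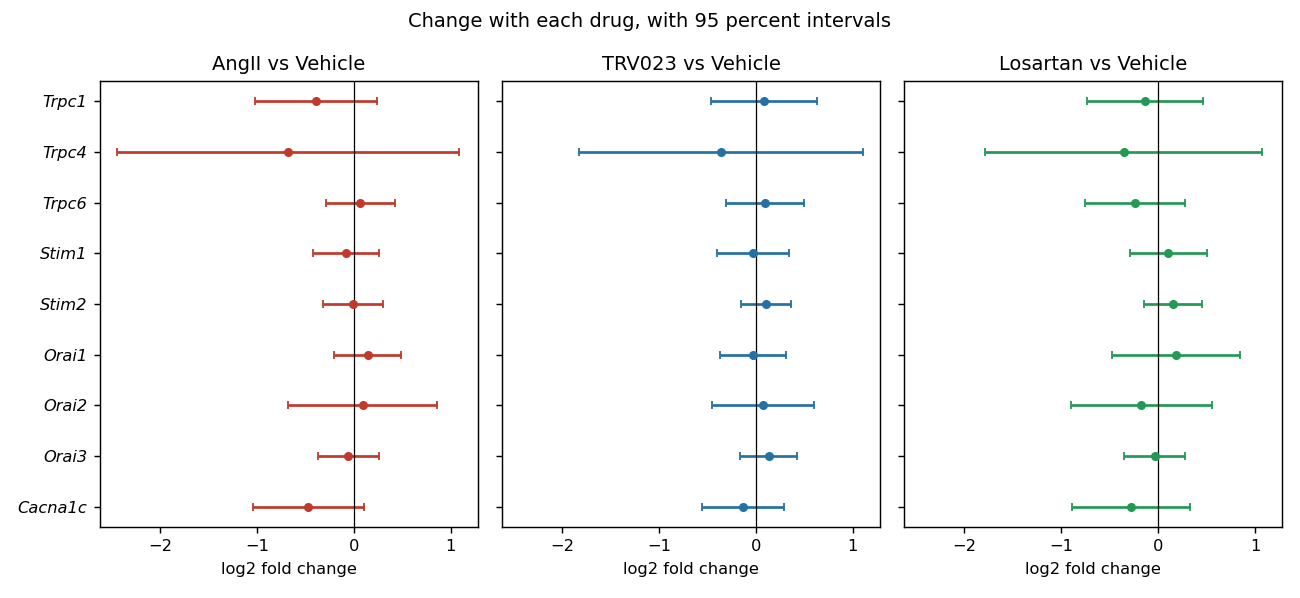
Log2 fold change of each gene against vehicle for AngII, TRV023 and losartan, fitted in edgeR from 3 rats per group, with bars for the 95% interval and a line at 0. All 27 intervals include 0, and those of Trpc4 are the widest, from -2.44 to 1.09 with AngII.

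Cacna1c, the pore of the L-type channel, had the lowest p of the 9 genes with AngII. Its FPKM was 3.15, 3.39 and 4.49 in Veh_923, Veh_924 and Veh_963, and 2.45, 1.68 and 3.15 in Ang2_922, Ang2_931 and Ang2_933. All 3 AngII values lay below all 3 vehicle values, although the highest AngII value, in Ang2_933, and the lowest vehicle value, in Veh_923, are alike to the digits printed. In FPKM 16.5% of the genes tested had all AngII values below all vehicle values. When the same reads were scaled by TMM, which allows for differences in RNA composition, Ang2_933 at 22.3 CPM was above Veh_923 at 19.6, and the groups overlapped. The fitted log2 fold change was -0.47 (SE 0.25, 95% interval -1.05 to 0.11, adjusted p = 0.481), and it was -0.29 without Veh_963 and -0.71 without Ang2_933. Trv_917, Trv_918 and Trv_930 had 2.82, 3.75 and 3.50, inside the vehicle range but for the first, with a log2 fold change of -0.14 (interval -0.56 to 0.29) that turned to 0.040 without Veh_963. The losartan rats were spread widely, at 4.12 in Los_925, 1.83 in Los_964 and 2.97 in Los_965. The values of the other genes follow in the same order of animals. Their log2 fold change of -0.28 (interval -0.89 to 0.33) was -0.066 without Los_964 and -0.11 without Veh_963.

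The store sensors Stim1 and Stim2 showed no change past the threshold with any drug. Stim1 had 16.5, 16.5 and 22.0 FPKM in vehicle, 17.8, 15.3 and 14.5 with AngII, 15.8, 21.2 and 17.0 with TRV023, and 18.6, 20.2 and 18.1 with losartan. The highest value was that of Veh_963, and each drug group overlapped vehicle. The log2 fold changes of Stim1 were -0.080 (interval -0.42 to 0.26) with AngII, -0.034 (-0.40 to 0.34) with TRV023 and 0.10 (-0.29 to 0.50) with losartan. Without Veh_963 they were 0.077, 0.13 and 0.26, so that the sign with AngII and TRV023 turned when that library was left out. Stim2 had 11.8, 13.4 and 13.5 in vehicle, 13.8, 10.9 and 10.4 with AngII, 14.0, 13.7 and 13.9 with TRV023, and 14.3, 12.4 and 14.8 with losartan. Its 3 TRV023 values differed by 1.04% of their mean (coefficient of variation) and all lay above vehicle in FPKM, as they did for 4.99% of genes, but not after TMM scaling. After TMM scaling it was the losartan values of Stim2 that all lay above vehicle, as for 2.82% of genes. The Stim2 log2 fold change was -0.0074 (interval -0.31 to 0.30) with AngII, 0.10 (-0.16 to 0.37) with TRV023 and 0.15 (-0.15 to 0.45) with losartan, and the TRV023 interval corresponds to between 0.896 and 1.29 times the vehicle level.

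Of the ORAI channels, which form the pore of store-operated entry, Orai1 had a single library far above the rest. Its FPKM was 70.6, 78.3 and 68.8 in vehicle, 63.0, 73.3 and 81.9 with AngII, 82.3, 61.5 and 68.9 with TRV023, and 63.2, 112 and 59.0 with losartan. The value of 112 belongs to Los_964, 1 of the 2 libraries with high neutrophil markers, whereas Trv_917, the other, had 82.3, and the other 2 losartan rats were below all vehicle rats. The log2 fold change with losartan was 0.19 (interval -0.47 to 0.85) with all rats and -0.26 (interval -0.57 to 0.058) without Los_964. With AngII it was 0.14 (-0.20 to 0.48) and with TRV023 -0.031 (-0.37 to 0.31). Orai3, which joins ORAI1 in some channels, had 26.1, 22.2 and 21.1 in vehicle, 20.2, 19.1 and 21.5 with AngII, 25.5, 23.9 and 26.6 with TRV023, and 23.1, 19.7 and 22.7 with losartan. Its intervals were among the narrowest, from -0.37 to 0.26 with AngII, -0.16 to 0.43 with TRV023 and -0.35 to 0.28 with losartan. Orai2 was scarcer, with 84 to 178 reads per library. It had 4.40, 4.87 and 3.80 in vehicle, 3.23, 3.30 and 6.11 with AngII, 3.99, 5.0 and 4.74 with TRV023, and 5.45, 3.28 and 2.61 with losartan. The AngII groups of Orai2 overlapped only through Ang2_933, and the log2 fold change of 0.091 (interval -0.68 to 0.86) was -0.28 without that rat.

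Among the TRPC channels, Trpc6 was the most abundant. Its FPKM was 8.58, 8.86 and 7.97 in vehicle, 7.48, 8.19 and 8.53 with AngII, 10.5, 9.56 and 7.05 with TRV023, and 9.78, 4.69 and 6.66 with losartan. The losartan rats were on both sides of vehicle, with the lowest value in Los_964. The log2 fold change of Trpc6 was 0.066 (interval -0.29 to 0.42) with AngII, 0.091 (-0.31 to 0.49) with TRV023 and -0.24 (-0.76 to 0.28) with losartan, the last being -0.060 without Los_964. Trpc1 had 2.10, 2.63 and 3.33 in vehicle, 1.86, 1.65 and 2.11 with AngII, 2.52, 3.25 and 2.79 with TRV023, and 2.53, 2.08 and 2.51 with losartan. The AngII values were the lowest of the 4 groups on average, at 1.87 ± 0.227 (SD, n = 3) against 2.69 ± 0.619 in vehicle, with Ang2_933 just above Veh_923. The log2 fold change was -0.39 (SE 0.28, interval -1.02 to 0.24, adjusted p = 0.575) with AngII, 0.080 (-0.47 to 0.63) with TRV023 and -0.13 (-0.73 to 0.46) with losartan. Without Veh_963 it was -0.20 with AngII and 0.27 with TRV023, and it turned to 0.055 with losartan.

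Trpc4 was close to the limit of measurement. Its reads numbered 24, 17 and 78 in vehicle, 12, 40 and 10 with AngII, 35, 31 and 18 with TRV023, and 29, 25 and 31 with losartan. Veh_963 alone, with 1.34 FPKM, was above the highest of all other libraries, 0.748 in Trv_917. The log2 fold changes of Trpc4 were -0.68 with AngII, -0.36 with TRV023 and -0.36 with losartan, and without Veh_963 they were 0.26, 0.58 and 0.58. The direction of Trpc4 with each drug therefore rested on a single vehicle library. In that library the smooth muscle markers Myh11 and Cnn1, a myosin heavy chain and calponin, were also at their highest, at 228 and 294 FPKM.

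**Figure D3:**
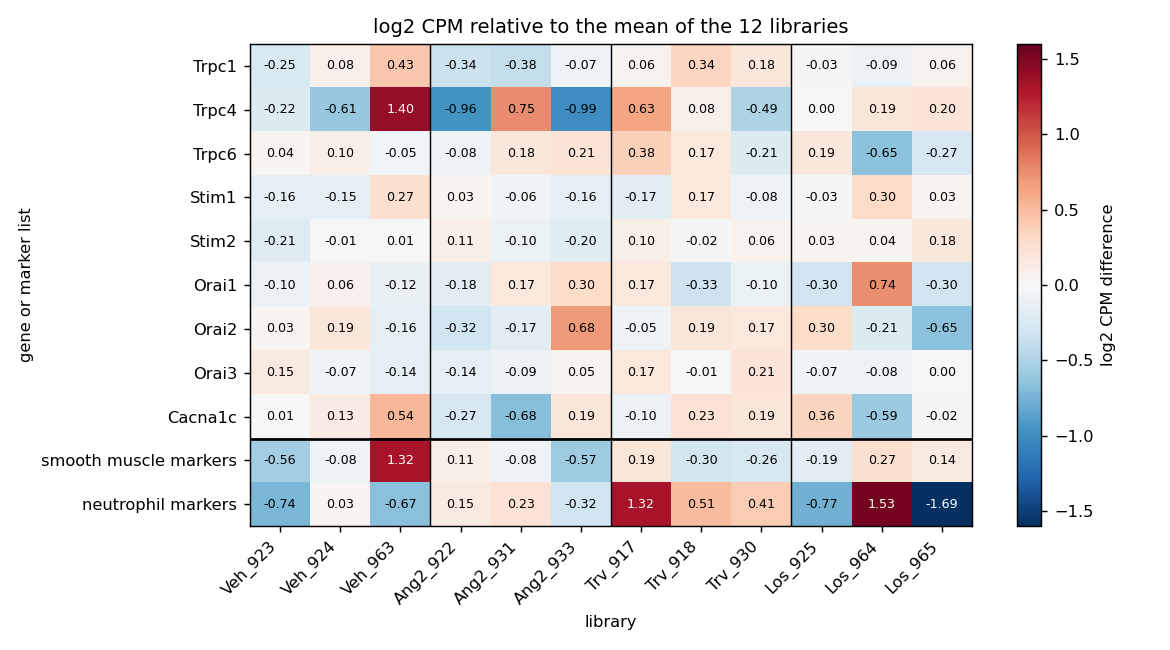
Log2 CPM of each gene, and mean log2 CPM of the smooth muscle and neutrophil marker lists, by library, as the difference from the mean over all 12 (color and printed value). Trpc4 (1.40) and the smooth muscle markers (1.32) stand out in Veh_963, and Orai1 (0.74) and the neutrophil markers (1.53) in Los_964.

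A direct comparison of the drugs, with all 12 libraries in 1 fit of 15662 genes, asks whether the balanced agonist, the biased agonist and the antagonist left different channel levels. Again 0 of 9 genes were called between AngII and TRV023, between TRV023 and losartan and between AngII and losartan, and 0 of 9 had an unadjusted p under 0.05 in edgeR. The background was 0% called in each pair, with 10.9%, 4.55% and 9.18% of genes at an unadjusted p under 0.05. DESeq2 called 0 of 9 too, with Trpc1 between AngII and TRV023 at an unadjusted p of 0.0483 and an adjusted p of 0.401. In edgeR the lowest p was also that of Trpc1 between AngII and TRV023, with a log2 fold change of -0.46 (SE 0.23, interval -0.96 to 0.038, unadjusted p = 0.0671, adjusted p = 0.488). The 3 AngII rats lay at 1.65 to 2.11 FPKM and the 3 TRV023 rats at 2.52 to 3.25, and they stayed apart after TMM scaling, as they did for 7.96% of genes in this direction. For Orai3 the AngII values, 19.1 to 21.5, were also below the TRV023 values, 23.9 to 26.6, as for 14.6% of genes in FPKM, but they overlapped after TMM scaling and the log2 fold change was -0.18 (interval -0.45 to 0.084). Orai3 with TRV023 was above all losartan values and Stim1 with AngII was below all losartan values in FPKM, where the background was 4.99% and 8.43%, and both overlapped after TMM scaling. The intervals between AngII and TRV023 ran from -0.37 to 0.29 for Stim1 and from -0.37 to 0.16 for Stim2. A test for any difference among the 4 groups called 0 of 9 genes, with adjusted p-values of 0.804 to 0.970 and a background of 0.0192%. None of the 9 had an unadjusted p under 0.05 in that test, against 7.98% of all genes.

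The make-up of each channel family was compared next, since a share within a library does not depend on how libraries are scaled. Stim1 made up 53.0% to 61.9% of the summed FPKM of Stim1 and Stim2 over the 12 libraries. Its mean share was 58.5% ± 3.35 in vehicle, 57.6% ± 1.2 with AngII, 56.3% ± 3.97 with TRV023 and 57.8% ± 3.60 with losartan (SD, n = 3), with exact two-sided permutation p-values of 0.7, 0.5 and 0.7 against vehicle. Orai1 made up 68.0% to 76.6% of the 3 ORAI transcripts in 11 libraries and 83.1% in Los_964. Its mean share was 72.5% ± 2.35 in vehicle, 74.8% ± 1.85 with AngII, 70.1% ± 3.04 with TRV023 and 74.0% ± 7.88 with losartan (n = 3), at exact permutation p-values of 0.4, 0.3 and 0.9. The losartan share minus that of vehicle was 1.44 percentage points, and -3.10 without Los_964. These shares carry the short gene model of Orai1.

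Trpc6 held the largest share of the 3 TRPC transcripts in every library, from 63.1% in Veh_963 to 78.7% in Ang2_933. With AngII it was 78.2%, 77.4% and 78.7% in Ang2_922, Ang2_931 and Ang2_933, and in vehicle 77.3%, 75.2% and 63.1% in Veh_923, Veh_924 and Veh_963. The AngII rats were all above vehicle, narrowly so for Ang2_931 against Veh_923, with means of 78.1% ± 0.654 and 71.9% ± 7.69. The difference of 6.27 percentage points had an exact two-sided permutation p of 0.1, the smallest that 3 against 3 rats can give, and it was 1.88 percentage points without Veh_963. With TRV023 the share was 72.4% ± 3.52 and with losartan 69.8% ± 6.0, at exact permutation p-values of 0.9 and 0.9. Trpc1 made up 15.6% to 28.6% and Trpc4 1.84% to 10.6% of the TRPC sum.

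**Figure D4:**
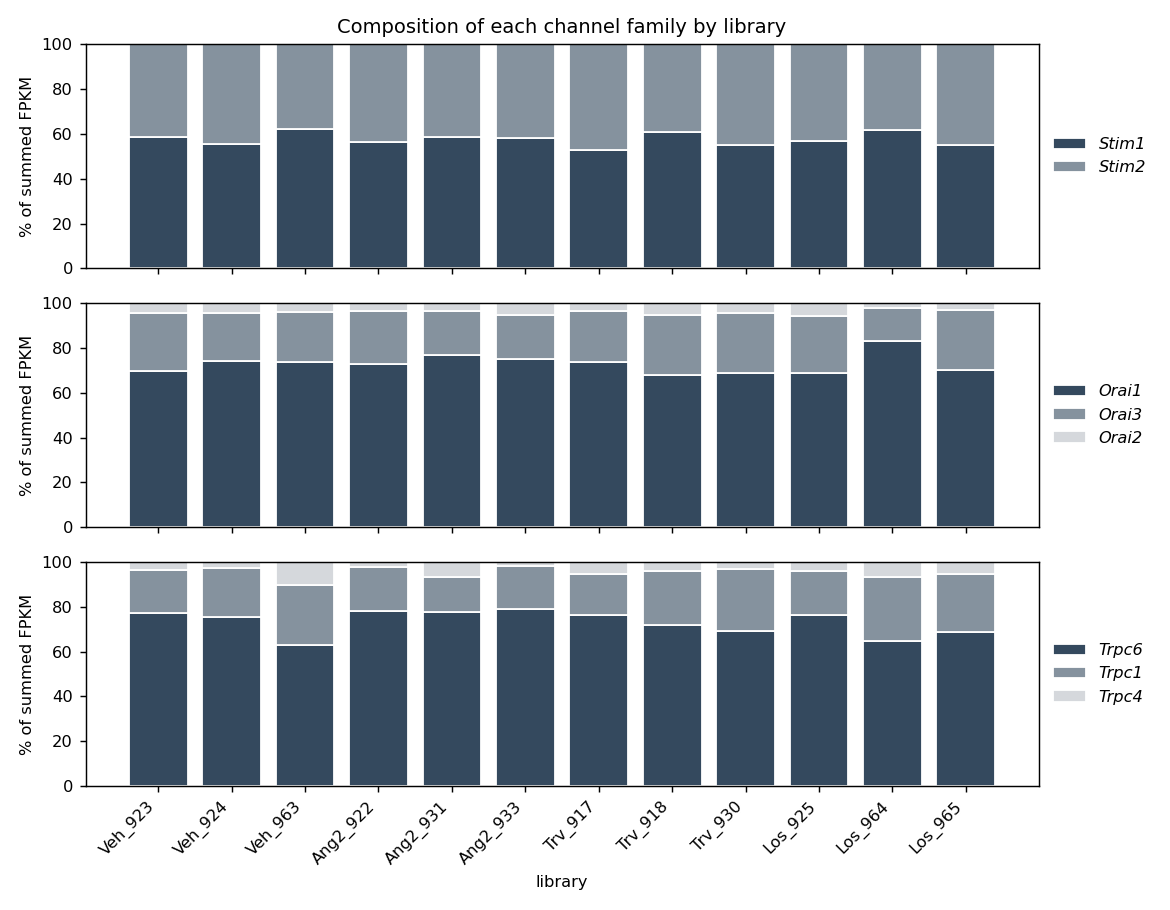
Share of each gene in the summed FPKM of its family (percent) in each of the 12 libraries, from top to bottom for STIM, ORAI and TRPC. Orai1 reaches 83.1% in Los_964, and Trpc6 is at 63.1% in Veh_963 and lies between 77.4% and 78.7% in the AngII rats.

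Other genes of the same families were measured in the same lungs, and these were picked for their family with their values known. Trpc2 had 1.41 ± 0.508 FPKM (SD, n = 12) and was below Trpc1 in 12 of 12 libraries. Trpc5 was listed only in the TRV023 table, with at most 4 reads in any library, and Trpc7 in the TRV023 and losartan tables, with at most 23 reads. Of the other pore genes of voltage-gated channels, the L-type gene Cacna1d had 2.35 ± 0.916 FPKM and was below Cacna1c in 10 of 12 libraries, the T-type gene Cacna1h had 2.44 ± 0.427 and was below it in 9, and the T-type gene Cacna1g had 1.03 ± 0.356 and was below it in 12. Cacnb3 at 11.0 ± 1.79 and Cacnb2 at 5.37 ± 1.04, which encode intracellular β subunits, were above Cacna1c in 12 of 12 libraries, and the other β subunit genes, Cacnb1 at 0.797 ± 0.236 and Cacnb4 at 0.222 ± 0.122, were below it in 12 of 12. The α2δ subunit genes Cacna2d1, Cacna2d2, Cacna2d3 and Cacna2d4 were all below it.

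The wider calcium pathway was followed through 73 further genes, listed by role with earlier results of these data known. With AngII 65 of them were tested and 0 were called by edgeR or DESeq2, with TRV023 0 of 64 and with losartan 0 of 65. At an unadjusted p under 0.05, 7 were lower and 1 higher with AngII, where the background was 5.39% lower and 6.54% higher, 5 were lower and 0 higher with TRV023, where it was 2.96% and 2.61%, and 0 were lower and 1 higher with losartan, where it was 0.963% and 0.686%. The median log2 fold change of the list was -0.16, -0.075 and -0.0072. Without Veh_963, a setting chosen after the values were seen, 4 of 66 were lower and 1 higher with AngII. In that setting 2 of 65 were lower and 3 higher with TRV023, and 0 of 66 lower and 1 higher with losartan. The share of all genes at this threshold is not given for that setting, so these counts have no background beside them. The medians were -0.097, -0.026 and 0.041, beside -0.017, 0.0062 and 0.0096 for all genes tested, with again 0 called.

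Upstream of TRPC opening, Gq activates phospholipase C-β, which makes diacylglycerol and inositol trisphosphate. Plcb4, one of the genes for this enzyme, had the lowest unadjusted p of the 73 with AngII. Its FPKM was 6.98, 6.32 and 7.47 in the AngII rats and 10.1, 12.2 and 13.6 in the vehicle rats, with no overlap, as for 16.5% of all genes in this direction, and its log2 fold change was -0.66 (SE 0.16, interval -1.01 to -0.30, unadjusted p = 0.00268, adjusted p = 0.295). With AngII it was -0.55 without Veh_963. With TRV023 it was -0.12 and with losartan -0.047. Plcb1, which encodes another such enzyme, had -0.94 with TRV023 (interval -1.56 to -0.32, adjusted p = 0.650) and -0.49 with AngII. Of the 7 tested genes of this step, 5 had a value below 0 with AngII, 5 with TRV023 and 3 with losartan, where 52.6%, 50.3% and 48.7% of all genes did.

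Downstream of calcium entry, calcineurin activates the NFAT factors. Nfatc4 had a log2 fold change of 0.51 (interval 0.18 to 0.83, adjusted p = 0.338) with AngII, and Ppp3cb, a catalytic subunit of calcineurin, -0.44 (-0.74 to -0.15, adjusted p = 0.347). With TRV023 these were 0.26 and -0.32, and with losartan 0.34 and -0.10. Among other routes of cation entry, Trpm7 had -0.50 (-0.86 to -0.14) with AngII and P2rx7, an ATP-gated channel, -0.73 (-1.36 to -0.098). P2rx7 had -0.65 with TRV023, where P2rx1, the ATP-gated channel of platelets and smooth muscle, had -1.64 (-2.92 to -0.35). Its FPKM was 13.0, 19.9 and 63.5 in vehicle, the last in Veh_963, and 13.2, 7.02 and 10.7 with TRV023, and without Veh_963 the log2 fold change was -0.66 (-1.35 to 0.029). Trpv4 had 0.60 (0.052 to 1.15) with losartan. All of these had adjusted p-values of 0.338 or more.

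For removal of calcium from the cytosol, Slc8a1, the sodium-calcium exchanger, was at 1.58 ± 0.695 FPKM with AngII and 3.28 ± 0.620 in vehicle (SD, n = 3), a log2 fold change of -0.93 (interval -1.74 to -0.12, adjusted p = 0.387). All 5 tested extrusion genes had a log2 fold change below 0 with AngII, as they did with TRV023 and with losartan, and these comparisons share the vehicle rats. Of all genes 52.6%, 50.3% and 48.7% were below 0. Without Veh_963 it was 4 of 5 with AngII, 4 of 5 with TRV023 and 3 of 5 with losartan, against 51.8%, 49.1% and 48.4% of all genes. In that setting Slc8a1 with AngII had -0.76 (-1.69 to 0.17). In the store, the ryanodine receptor genes Ryr2 and Ryr3 had -1.13 and -0.70 with AngII and -1.03 and -1.17 with TRV023. Without Veh_963 these were -0.88 and -0.50 with AngII and -0.78 and -0.96 with TRV023. Casq2, a calcium-binding protein of the store, had 0.734, 1.2 and 6.59 FPKM in vehicle, the last in Veh_963. Its log2 fold changes of -1.49 with AngII, -1.53 with TRV023 and -1.45 with losartan rested on that library and were 0.070, 0.039 and 0.11 without it. Atp2a2, the main pump of the store, had -0.24 (-0.51 to 0.038) with AngII. Cav1, which encodes a scaffold of caveolae, had -0.31 (-0.65 to 0.026) with AngII, and Cracr2b, a regulator of store-operated entry, -1.65 with AngII and -1.90 with TRV023, with intervals that include 0, and -0.75 and -1.0 without Veh_963. The median log2 fold change of the smooth muscle markers was -0.72 with AngII, -0.62 with TRV023 and -0.33 with losartan, with 0 of these markers called. These values rested on Veh_963, and without it they were 0.096, 0.14 and 0.40.

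Last, the 9 genes were compared with each other across the 12 libraries in log2 CPM. Of 36 pairs the strongest relation was between Trpc1 and Cacna1c, with Pearson's r = 0.73 (permutation p = 0.00724, adjusted 0.261) and Spearman's rho = 0.71 (permutation p = 0.0116, adjusted 0.252). Leaving out the 2 libraries farthest from the median of Trpc1 gave r = 0.48, and no pair passed the adjustment. Such a cut also narrows the range of values, so that a lower r cannot show whether a relation rests on those libraries. A further 18 relations set the 9 genes against the smooth muscle and neutrophil markers. These lists had stood out in Veh_963 or Los_964, as Trpc4 and Orai1 had, so their p-values are not independent of that. The adjustment covers these 18 relations only, and not the other marker lists. Here the 2 farthest libraries are those farthest from the median of the marker list. Trpc4 with smooth muscle gave r = 0.70 (permutation p = 0.00932, adjusted 0.160) and rho = 0.66 (permutation p = 0.0214, adjusted 0.193), with r = 0.22 without the 2 farthest libraries. Stim1 with smooth muscle gave r = 0.64 (permutation p = 0.0192, adjusted 0.160) and rho = 0.50 (permutation p = 0.104, adjusted 0.375), with r = 0.36 without those farthest. Orai1 with neutrophil markers gave r = 0.63 (permutation p = 0.0266, adjusted 0.160) and rho = 0.44 (permutation p = 0.154, adjusted 0.461), with r = 0.27 without those farthest. These 3 relations were thus weaker without the 2 libraries left out, with the same limit from the narrower range. Stim2 with smooth muscle gave r = 0.47 (permutation p = 0.132, adjusted 0.339) and rho = 0.61 (permutation p = 0.0398, adjusted 0.239), with r = 0.73 without those farthest. Orai2 with smooth muscle gave r = -0.52 (permutation p = 0.0922, adjusted 0.332) and rho = -0.71 (permutation p = 0.0132, adjusted 0.193), with r = -0.61 without those farthest. None of the 18 passed the adjustment. The other marker lists were correlated with the 9 genes without a test. The strongest of those relations were Trpc1 with ciliated cell markers (r = 0.70) and Orai3 with cardiac muscle markers (r = -0.67). Between AngII and TRV023 all 5 tested ciliated markers had a log2 fold change below 0, against 51% of all genes, with a median of -1.41. All 5 were lower at an unadjusted p under 0.05 in edgeR, against 5.43% of all genes. After adjustment 0 were called, where 0% of all genes were called in this pair. The part of ciliated cells in the Trpc1 values was not tested. Cacna1c had r = 0.12 (permutation p = 0.699, adjusted 0.939) and rho = -0.31 (permutation p = 0.319, adjusted 0.637) with the smooth muscle markers. The libraries of a group share their treatment, and a relation across 4 groups of 3 includes any difference between groups.

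The gene most like Cacna1c over the 12 libraries, of 15662, was Cdk5rap2, a centrosome gene, with r = 0.96, followed by Clhc1 with 0.92 and Phf21b with 0.91. For Trpc6 the 3 most alike were Pdcd11 (0.96), Aifm2 (0.92) and Farsb (0.91), and Trpc1 was most like Cemip (0.94) and Fgf14 (0.91). Orai1 was most like Fdx1 (0.95), Adrm1 (0.92) and Tcf25 (0.91). Orai2 was most like Nlrp3 (0.89), Aspg (0.88) and Selplg (0.85). Orai3 was most like Cbx8 (0.81), Phrf1 (0.78) and Pcsk5 (0.78). Stim1 was most like Etnk2 (0.89), Dbt (0.87) and Dusp14 (0.87), and Stim2 like Hpse2 (0.87), Frs3 (0.85) and Rerg (0.83). For Trpc4 the named gene among its 3 most alike was Dnm1 (0.84). Each of these is the highest of the correlations with 15662 genes over 12 libraries and is given as a description with no test.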

How the data were processed

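The authors extracted total RNA from about 10 mg of MCT rat lung with an RNeasy kit, and Novogene sequenced it. The deposited tables, 1 for each drug with the same vehicle libraries, give read counts per gene and FPKM. The aligner, counter, genome build and use of strand were not given in the sources used here. Scaled values, the authors' fold changes and p-values, and lists of their changed genes were not used.

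Groups came from the labels, with 3 rats each. Counts were fitted with edgeR 4.0.16 (R 4.3.3) by the quasi-likelihood test after TMM scaling and filterByExpr, in the 6 libraries of each comparison with vehicle, and in 1 fit of 12 libraries between drugs. P-values were adjusted by Benjamini-Hochberg over all genes tested, and calls were made at 0.05. FPKM was used for levels and shares, and shares were compared by exact permutation. The fits were tested on simulated data. Correlations used log2 CPM (prior count 2) and 100000 permutations (scipy 1.17.1). Alternatives were DESeq2 1.42.0, limma 3.58.1 on log2(FPKM + 1) and limma-voom, other scalings and filters, a gene length trend, and libraries left out. Depth was 16106337 to 20096877 counted reads, and genes with few reads such as Trpc4 were imprecise.

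The 9 genes and the lists were chosen with earlier results of these data known. Named were all 9, of each pathway list the 2 genes with the smallest p per comparison, of each marker list the first 2 tested, and for each of the 9 the 3 genes with the highest r. A few genes that this rule names are not reported here.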

Additional observations from a re-analysis of the deposited data

How the results depend on the processing

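None of the 9 genes, and none of the pathway genes, was called under any of the alternatives run, a count of 0 in 174 of 174 recomputed counts, in the comparisons with vehicle and, for the 9 genes, between drugs. Few genes of any kind were called under these settings, so that a count of 0 is near the background. Apart from DESeq2 and the fit with a lone losartan library, at most 3 genes were called in a comparison with vehicle. At an unadjusted p under 0.05, single genes appeared under some settings. Cacna1c with AngII did so with library totals (-0.60, adjusted p = 0.36) and without Ang2_933 (-0.71, adjusted p = 0.601), both in edgeR. Between AngII and TRV023, Trpc1 (-0.61, adjusted p = 0.335) and Orai3 (-0.32, adjusted p = 0.333) did so with library totals in edgeR, and Trpc1 with DESeq2. Without Los_925, Trpc6 did so with losartan (-0.48), between TRV023 and losartan (0.58) and between AngII and losartan (0.56), and without Los_964 Orai1 between AngII and losartan (0.41).

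Of the log2 fold changes, 51 recomputed values had the other sign and 387 kept it. With AngII, Stim2 turned to 0.0051 with RLE scaling, 0.0044 with DESeq2, 0.0071 with all 4 groups in 1 fit and 0.13 with the length trend removed. Library totals turned Trpc6 to -0.071 and Orai2 to -0.049 and moved the median of the 9 genes to -0.19. Limma on FPKM gave -0.064 for Trpc6, -0.0030 for Orai1, -0.078 for Orai2 and a median of -0.16, and no value for Trpc4, whose mean FPKM was under 1. The length trend turned Stim1 to 0.026 and Orai1 to -0.039. The cause of these shifts was not tested.

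The rats numbered 96x are Veh_963, Los_964 and Los_965. Only Veh_963 is in the comparisons of AngII and TRV023 with vehicle. There this setting repeats the fit without Veh_963, and both are among the recomputed counts and values above. Leaving out the 96x rats gave, with AngII, 0.26 for Trpc4, 0.077 for Stim1, 0.033 for Stim2 and a median of 0.028. With TRV023 it gave 0.58 for Trpc4, 0.13 for Stim1, -0.014 for Orai2 and 0.040 for Cacna1c. With losartan it gave 0.042 for Trpc1, 0.43 for Trpc4, 0.11 for Trpc6, -0.29 for Orai1, 0.18 for Orai2, 0.28 for Cacna1c and a median of 0.12, where the lone losartan library was assumed to vary like the others. Without Veh_963 and Los_964 together, a choice made after seeing the data, losartan gave 0.092 for Trpc1, 0.55 for Trpc4, -0.29 for Orai1, 0.11 for Cacna1c and a median of 0.092. In shares without the 96x rats, Stim1 with AngII was 0.763 percentage points from vehicle, Orai1 with losartan -3.18, and Trpc6 -3.84 with TRV023 and 0.071 with losartan.

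With single libraries left out, AngII values ran from -1.59 to 0.26 for Trpc4, -0.15 to 0.077 for Stim1, -0.088 to 0.069 for Stim2, -0.28 to 0.29 for Orai2, -0.12 to 0.033 for Orai3 and -0.10 to 0.028 for the median. TRV023 values ran from -0.067 to 0.27 for Trpc1, -0.70 to 0.58 for Trpc4, -0.045 to 0.24 for Trpc6, -0.14 to 0.13 for Stim1, -0.17 to 0.083 for Orai1, -0.014 to 0.16 for Orai2, -0.23 to 0.040 for Cacna1c and -0.049 to 0.076 for the median. Losartan values ran from -0.29 to 0.055 for Trpc1, -0.71 to 0.58 for Trpc4, -0.0056 to 0.26 for Stim1, -0.26 to 0.36 for Orai1, -0.45 to 0.032 for Orai2, -0.097 to 0.056 for Orai3 and -0.17 to 0.055 for the median. Shares ran from -2.58 to 0.763 percentage points for Stim1 with AngII, -2.73 to 1.0 for Stim1 with losartan, -3.10 to 3.99 for Orai1 with losartan, and -3.84 to 3.30 and -6.47 to 0.672 for Trpc6 with TRV023 and losartan.

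No paired analysis was possible because the groups share no animal numbers. DESeq2 called 202 genes with AngII, 106 with TRV023 and 5 with losartan, against 2, 1 and 0 by edgeR. With 3 rats a group the intervals of Stim1, Stim2 and Orai3 were narrow, and those of Trpc4, at 10 to 78 reads, were too wide to give a direction.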
